A study of Rattus norvegicus with 6 samples.

Results

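Cardiac myosin is the motor of the heartbeat, and 10 genes of it were followed here in rat myocardium after 30 min of coronary occlusion. They were the rows of the deposited expression table, 10 of 32623 genes, whose symbols are Myh6, Myh7, Myh7b, Myl2, Myl3, Myl4, Myl7, Mybpc3, Mybphl and Mylk3. All 10 were found once and all 10 passed the filter for testing, a mean of at least 0.5 FPKM (fragment counts divided by gene length and library size, a level per length). The study sequenced total RNA of wild-type male rats in 3 sham samples and 3 ischemia samples, each labelled 30 min. All rats are described with anesthesia, ventilation and a left thoracotomy, and in the ischemia group (the model rats) the left anterior descending artery was tied over a tube. No ligation is described for sham. The labels give the tissue as myocardial tissue only, so the chamber and the distance from the tied artery are not known, and neither is whether each sample came from a separate rat. The p-values therefore measure only the spread between these samples. For some of the 10 genes, such as the light chains, the spread in sham moved with the chamber markers given further on.

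A myosin motor holds a pair of heavy chains, and each heavy chain carries 1 essential and 1 regulatory light chain on its lever arm. In the heart each of these subunits has more than 1 gene. Myh6 encodes the fast alpha heavy chain, which dominates in the adult rodent ventricle, and Myh7 the slower beta chain, which rodents use mainly before birth and in stressed hearts. Myl2 and Myl7 are the ventricular and atrial regulatory light chains, Myl3 and Myl4 the ventricular and atrial essential light chains. Mybpc3 encodes cardiac myosin-binding protein C, a brake on the motor in the thick filament. Mybphl encodes a related protein found mostly in the atrium, and Mylk3 the cardiac kinase that phosphorylates the regulatory light chain.

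Myh6 and Myh7 lie in tandem on the minus strand of chromosome 15, Myh6 at chr15:33605654-33629699 and Myh7 at chr15:33634422-33656089 in the coordinates of the deposited table, with 4722 bases between them. The build of these coordinates is not given in the sources used here. Introns of Myh6, Myh7 and Myh7b hold the microRNA genes miR-208a, miR-208b and miR-499. Their mature sequences are shown because the host genes are the heavy chains compared here and because the row of the miR-208b precursor is reported further on. The sequences are from RefSeq (GRCr8), 5′ to 3′, with the seed, bases 2 to 8, in capitals:
rno-miR-208a-3p: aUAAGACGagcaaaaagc
rno-miR-208b-3p: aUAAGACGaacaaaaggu
rno-miR-499-5p: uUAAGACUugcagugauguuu
The miR-208a and miR-208b arms share the seed UAAGACG, and miR-499 differs from them in its last seed letter. The arms themselves were not measured in these libraries.

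The 250 bases before the transcription start were available from RefSeq (GRCr8) for 9 of the 10 genes, matched by symbol, with no entry for Myl2. Those of both adult heavy chains and of both essential light chains are shown, since these pairs went in different directions across the samples. Capitals mark matches, on either strand, to 7 motifs of regulators of muscle genes and of transcription starts. The motifs were the M-CAT element (CATTCC), the E-box CAGCTG, the GATA motif (AGATAA), the thyroid hormone receptor motif (AGGTCA), the TATA motif (TATAAA), the SRF CArG box and the MEF2 box, and no match overlapped another.
Myh6, chr15:32411698-32411947, minus strand: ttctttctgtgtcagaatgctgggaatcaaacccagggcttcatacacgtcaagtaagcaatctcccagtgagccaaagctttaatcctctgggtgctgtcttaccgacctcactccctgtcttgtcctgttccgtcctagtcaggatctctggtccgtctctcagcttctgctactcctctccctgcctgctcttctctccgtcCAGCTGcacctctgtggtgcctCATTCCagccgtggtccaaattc
Myh7, chr15:32438195-32438444, minus strand: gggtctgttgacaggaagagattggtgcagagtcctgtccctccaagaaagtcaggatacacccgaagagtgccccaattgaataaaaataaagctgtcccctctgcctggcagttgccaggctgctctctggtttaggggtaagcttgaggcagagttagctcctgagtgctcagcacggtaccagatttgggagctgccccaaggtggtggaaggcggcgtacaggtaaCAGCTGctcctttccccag
Myl3, chr8:119616844-119617093, plus strand: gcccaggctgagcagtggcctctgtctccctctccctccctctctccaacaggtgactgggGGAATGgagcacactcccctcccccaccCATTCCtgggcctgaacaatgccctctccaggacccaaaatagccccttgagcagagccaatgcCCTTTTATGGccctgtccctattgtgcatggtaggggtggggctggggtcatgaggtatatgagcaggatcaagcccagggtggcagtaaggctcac
Myl4, chr10:89975900-89976149, plus strand: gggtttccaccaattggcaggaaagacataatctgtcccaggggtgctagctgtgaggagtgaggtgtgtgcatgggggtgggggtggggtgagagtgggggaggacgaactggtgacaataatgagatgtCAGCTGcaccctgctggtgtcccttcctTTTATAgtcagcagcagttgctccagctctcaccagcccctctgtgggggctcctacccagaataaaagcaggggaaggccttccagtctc
The Myh6 window held an M-CAT element 23 bases and an E-box 45 bases before the start, and the Myh7 window an E-box 19 bases before it. The Myl3 window held M-CAT elements at 189 bases (on the other strand) and 161 bases and a CArG box at 97 bases, and the Myl4 window an E-box at 119 bases and a TATA motif on the other strand at 91 bases. Of the windows not printed, that of Mybpc3 held a MEF2 box 109 bases before the start, and that of Myl7 none of the motifs. Over 33469 promoter windows of that length, 12.1% held an M-CAT element, 12.0% the E-box and 12.9% the TATA motif, and 501 a CArG box and 175 a MEF2 box. The matches are a description of the letters only.

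Total counts per library were 68529126 to 79591989, and 3 counts came to 0.0377 to 0.0438 CPM (counts over library size). The 10 genes took 4.58% to 5.34% of all counts in sham and 1.21% to 3.43% in ischemia. Summed FPKM of 7 cardiomyocyte genes outside the list (such as Tnnt2 and Actc1) was 25250 to 31444 in sham and 10979 to 19758 in ischemia, so the labelled tissue carried its defining transcripts in each sample. Summed FPKM of 8 neutrophil and monocyte genes was 108 to 189 in sham and 1272 to 8537 in ischemia. These 8 genes were all higher in ischemia at an edgeR adjusted p under 0.05, and their part in the differences reported here was not tested. Skeletal muscle markers, of which 8 of 10 were in the table and 3 were at 0 in some sample, summed to between 4.10 and 17.0 FPKM, and none of the 3 tested passed with edgeR or DESeq2 (0 at an unadjusted p under 0.05). Counts on chromosome Y numbered 161 in sham 1 against 3218 to 8970 elsewhere, while the labels describe male rats. In bulk tissue, fewer cells of a type and less RNA per cell cannot be told apart.

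The samples did not split by group alone. Of 9 atrial markers outside the list, 8 had their lowest sham value in sham 2, by a wide margin for most. Gja5 was nearly even in sham (3.13, 2.84 and 3.47 FPKM) and higher in each ischemia sample (5.85, 5.26 and 5.79), and Kcna5 was lowest in sham 1 (1.30, 1.90 and 2.23 FPKM in sham). Summed FPKM of the 9 was 36949, 102 and 28547 in sham 1, 2 and 3, and 7873, 2067 and 1271 in ischemia 1, 2 and 3, with none of the 9 at 0 in any sample. The sums are mostly Nppa, the atrial natriuretic peptide, which ranged from 67.7 FPKM in sham 2 to 33225 in sham 1. Sln, the atrial calcium pump inhibitor sarcolipin, was at 3649, 15.9 and 3239 FPKM in sham and 415, 3.89 and 3.80 in ischemia. Summed FPKM of 4 ventricular markers ran the other way within sham, at 5.79, 39.7 and 8.93, and was 29.9, 12.0 and 18.6 in ischemia. All 4 were highest in sham 2 among the sham samples. Irx4, the ventricular homeobox factor, was at 1.40, 18.2 and 1.85 FPKM in sham and 13.6, 2.88 and 7.55 in ischemia, whereas Hey2, with 2.52, 6.01 and 5.45 FPKM in sham, was nearly as high in sham 3 as in sham 2. The chamber-specific chains are therefore compared against a sham group whose libraries differed in most of these markers, and values are given with and without sham 1 and sham 3. Without them sham is 1 library, which the fit assumes to vary like the ischemia samples. None of the 9 atrial and 4 ventricular markers passed the edgeR test between the groups (4 and 0 at an unadjusted p under 0.05), and DESeq2 called 1 atrial marker higher and 2 lower.

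**Figure D1:**
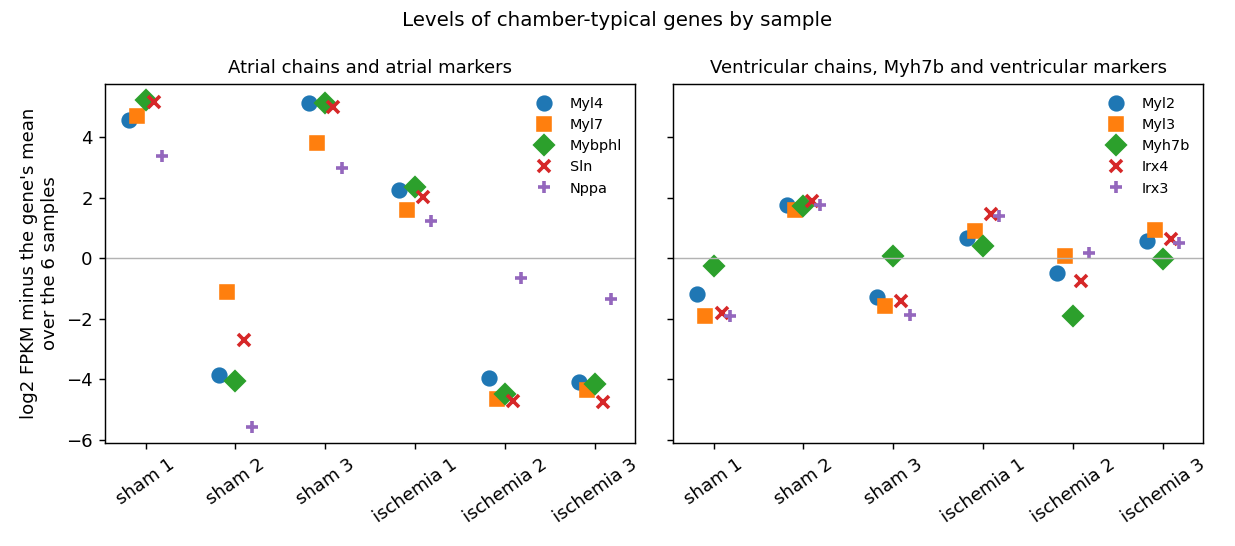
Levels of the atrial chains Myl4 and Myl7, Mybphl and the atrial markers Sln and Nppa (left) and of Myl2, Myl3, Myh7b and the ventricular markers Irx4 and Irx3 (right) in each of the 6 samples. The y axis is log2 FPKM minus the gene's mean over the 6 samples. Atrial genes stand high in sham 1, sham 3 and, less so, ischemia 1, and ventricular genes are highest in sham 2.

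The first question was whether the 10 genes differed between ischemia and sham. With the quasi-likelihood test of edgeR, none of the 10 passed a Benjamini-Hochberg adjusted p of 0.05 over the 13964 tested genes, where 6.71% of tested genes were called, 1.53% lower and 5.18% higher in ischemia. At an unadjusted p under 0.05 there was 1, Myh6, where 32.4% of tested genes were under that value. DESeq2 called 1 member, again Myh6, where it called 27.3% of all tested genes (12.5% of all as lower). In 3 of the 10 genes, Myh6, Mybpc3 and Mylk3, the 3 ischemia values lay below the 3 sham values, a pattern found in 19.1% of tested genes. None lay wholly above, as 22.0% of tested genes did. In either direction that is 3 of 10 members and 41.1% of tested genes, and in the other 7 members the groups overlapped. Log2 fold changes were negative for 8 genes and positive for Myh7 and Myl3, with a median of -1.22 beside -0.0015 over all tested genes.

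**Figure D2:**
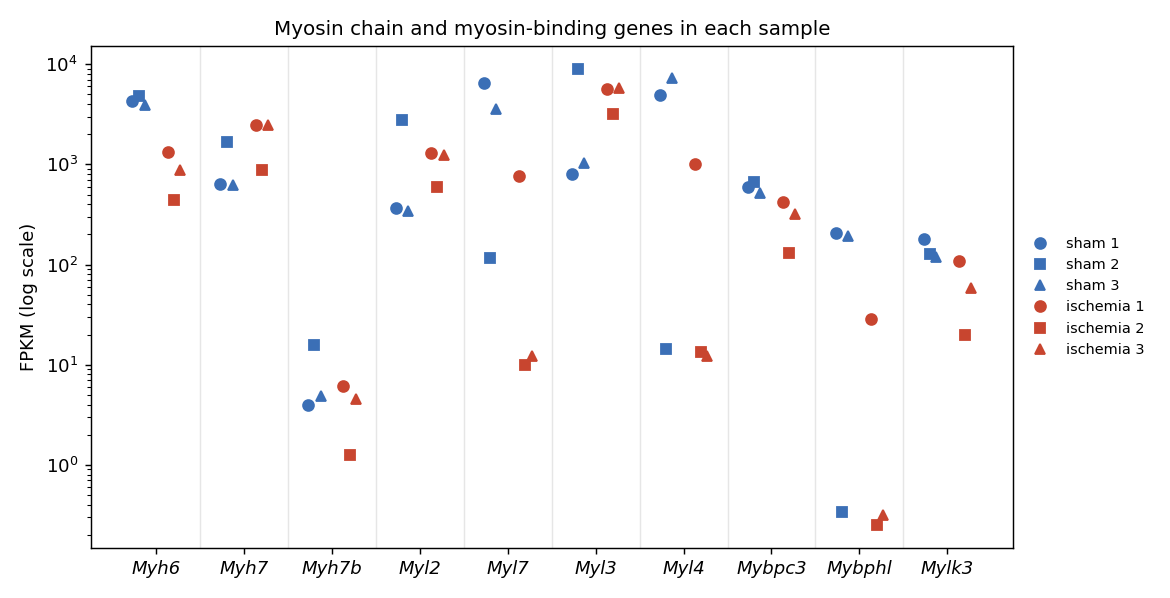
FPKM of the 10 genes in each sample, on a log axis. Blue symbols are sham and red symbols ischemia, with circles, squares and triangles for replicates 1, 2 and 3. Myh6, Mybpc3 and Mylk3 are lower in all 3 ischemia samples, and Myl4, Myl7 and Mybphl spread within sham over more than the distance between the groups.

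Among the heavy chains, Myh6 was the gene with the smallest p. Its FPKM was 4323, 4799 and 3899 in sham 1, 2 and 3 and 1328, 437 and 886 in ischemia 1, 2 and 3. The sham libraries were close to each other, within 1.23-fold, and each ischemia library was lower. The part of chamber content in these values was not tested. The mean FPKM of 4340 ± 450 (SD, n = 3) in sham was 4.91-fold that of ischemia, 883 ± 445 (SD, n = 3). On the log2 scale this was a difference of -2.38 ± 0.54 (SE; unadjusted p 0.00387) whose adjusted p in edgeR, 0.0510, missed the threshold. The exact two-sided permutation test of log2 CPM gave p 0.1, the smallest that 3 samples against 3 allow. The direction was the same under 17 alternative settings, from -2.81 to -1.57, and 7 of them passed the threshold, with adjusted p-values from 1.05e-05 (DESeq2) up to 0.394. Without single libraries the log2 fold change was -2.81 to -2.04, and it passed without ischemia 1 (edgeR adjusted p 0.0390), a fit that called 18.7% of tested genes, 7.98% as lower. It missed the threshold without ischemia 2 (edgeR adjusted p 0.0680), a fit that called 462 genes higher and 109 lower. The fits without sham 1, without sham 2, without sham 3, without ischemia 3 and without both sham 1 and 3 called 0 genes in the whole table (1707 to 3809 at an unadjusted p under 0.05), so a p that misses the threshold in them says nothing about a single gene.

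Myh7, the other heavy chain of the adult heart, did not follow it. Its FPKM was 633, 1655 and 617 in sham and 2494, 880.2 and 2470 in ischemia. Sham 2 lay above ischemia 2, so the groups overlapped. EdgeR put the log2 fold change at 0.86 ± 0.68 (SE; adjusted p 0.400). It was -0.037 without sham 1 and 3, and 1.68 (adjusted p 0.164) without sham 2.

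Myh7b, a slow heavy chain whose transcript in the heart yields little protein, was present at a far lower level per length. Its FPKM was 3.94, 15.6 and 4.90 in sham and 6.15, 1.25 and 4.57 in ischemia. Like the ventricular light chains it was highest in sham 2, and the groups overlapped. The fitted log2 difference of -1.19 ± 0.82 (SE; edgeR adjusted p 0.338) did not pass. It was -0.097 without sham 2 and -2.24 without sham 1 and 3.

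The share of Myh7 in the summed FPKM of Myh6 and Myh7 is free of library scaling. It was 12.8%, 25.6% and 13.7% in sham and 65.3%, 66.8% and 73.6% in ischemia. Myh7 was the minor adult heavy chain transcript in every sham library and the major one in every ischemia library. The mean share went from 17.4% ± 7.18 (SD, n = 3) to 68.6% ± 4.43 (SD, n = 3), a difference of 51.2 percentage points, and the exact permutation p was 0.1 (0.3 adjusted over the 3 chain pairs), the smallest possible here. The shift kept its direction when any 1 library was left out (48.7 to 55.3 points). Against sham 2 alone, with no test, it was 42.9 points. Summed FPKM of both chains was 4956, 6454 and 4517 in sham and 3822, 1317 and 3356 in ischemia, without overlap (exact permutation p 0.1). The transcripts of both genes are near-identical over long stretches, so reads that map to both could have been dropped or divided in counting.

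**Figure D3:**
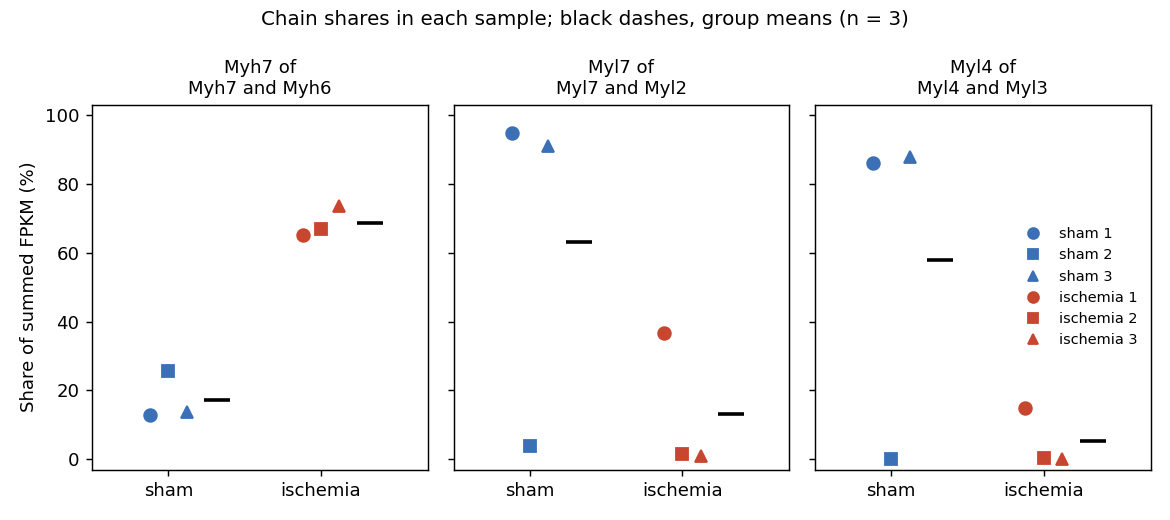
Share of 1 gene in the summed FPKM of a pair of chain genes, in percent, for each sample. Symbols are single samples and black dashes group means (n = 3). The Myh7 share separates sham (12.8% to 25.6%) from ischemia (65.3% to 73.6%), whereas the Myl7 and Myl4 shares of sham 2 lie with those of ischemia 2 and 3.

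Of the regulatory light chains, Myl2 differed more among sham samples than between the groups. Its FPKM was 366, 2795 and 346 in sham and 1315, 594 and 1238 in ischemia. Sham 2 was 7.85-fold above the mean of sham 1 and 3, and all ischemia values lay between these extremes. EdgeR fitted a log2 fold change of -0.38 ± 0.96 (SE; adjusted p 0.804), while the difference of the mean log2 CPM was positive, 0.39, so no direction can be given. It was -1.69 without sham 1 and 3 and 1.60 without sham 2.

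Myl7, its atrial counterpart, had 6530, 117 and 3541 FPKM in sham and 764, 10 and 12.3 in ischemia. It was high in the libraries with high Sln, and sham 2 lay below ischemia 1. Its log2 fold change of -3.66 ± 2.05 (SE; edgeR adjusted p 0.254) became 0.88 without sham 1 and 3. Without ischemia 1 it came to -8.25 (edgeR adjusted p 0.0408), in the fit that called 18.7% of tested genes. Myl7 made up 94.7%, 4.02% and 91.1% of the summed regulatory light chain FPKM in sham and 36.8%, 1.66% and 0.985% in ischemia (exact permutation p 0.2, adjusted 0.3). As a share of raw counts, which are not divided by length, it was 98.7%, 14.8% and 97.7% in sham and 70.8%, 6.55% and 3.97% in ischemia, so Myl7 was then the larger in ischemia 1 and the mean in ischemia was 27.1% against 13.1%. The sum of Myl2 and Myl7 was 6896, 2912 and 3887 FPKM in sham and 2079, 604 and 1250 in ischemia, lower in each ischemia sample (exact permutation p 0.1).

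The essential light chains, whose promoters are printed above, showed the same division. Myl3 was at 796, 9024 and 1021 FPKM in sham and 5691, 3180 and 5780 in ischemia. Sham 2 was the highest and sham 1 and 3 the lowest of all 6 samples, an 11.3-fold range within 1 group. The fitted log2 difference was 0.20 ± 1.04 (SE; edgeR adjusted p 0.905), -1.17 without sham 1 and 3, and 2.46 without sham 2 (adjusted p 0.0820).

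Myl4, normally an atrial and embryonic chain, was at 4937, 14.3 and 7312 FPKM in sham and 1000.0, 13.3 and 12.2 in ischemia. Sham 2 lay beside ischemia 2 and 3, and the range within sham was 511-fold. On the log2 scale the difference was -3.54 ± 2.33 (SE; edgeR adjusted p 0.321), and it turned to 4.30 without sham 1 and 3. As for Myl7 and Mybphl, FPKM of ischemia 1 lay above sham 2 and that of ischemia 2 and 3 below it. Without ischemia 1 it was -8.33 (edgeR adjusted p 0.0731). The Myl4 share of both essential chains was 86.1%, 0.158% and 87.7% in sham and 14.9%, 0.418% and 0.211% in ischemia (exact permutation p 0.4, adjusted 0.4). The summed FPKM of Myl3 and Myl4, 5733 to 9038 in sham and 3194 to 6691 in ischemia, overlapped (exact permutation p 0.3).

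Of the myosin-binding genes, Mybpc3 was lower in each ischemia sample. Its FPKM was 602, 672 and 517 in sham and 425, 131 and 322 in ischemia. Sham was even, within 1.30-fold, and ischemia 2 was the lowest. The log2 fold change, -1.11 ± 0.50 (SE; edgeR adjusted p 0.175, exact permutation p 0.1), was negative under all 17 alternatives (-1.48 to -0.32), none of which passed.

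Mybphl had 209, 0.336 and 193 FPKM in sham and 28.6, 0.251 and 0.313 in ischemia. These levels stood on 36220, 63 and 31893 reads in sham and 5365, 43 and 51 in ischemia, so it lay under 0.5 FPKM in sham 2 and in ischemia 2 and 3, the libraries with low Sln. EdgeR gave -3.75 ± 2.42 on the log2 scale (SE; adjusted p 0.312), 4.55 without sham 1 and 3, and -8.88 (adjusted p 0.0710) without ischemia 1.

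Mylk3, the kinase of the regulatory light chain, was at 179, 127 and 119 FPKM in sham and 108, 19.7 and 58.4 in ischemia. As with Mybpc3, the groups did not overlap and ischemia 2 was the lowest. The log2 fold change, -1.25 ± 0.60 (SE; edgeR adjusted p 0.200, exact permutation p 0.1), was negative under all 17 alternatives (-1.91 to -0.52), with none past the threshold. Without ischemia 1 it was -1.91 (edgeR adjusted p 0.0698).

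**Figure D4:**
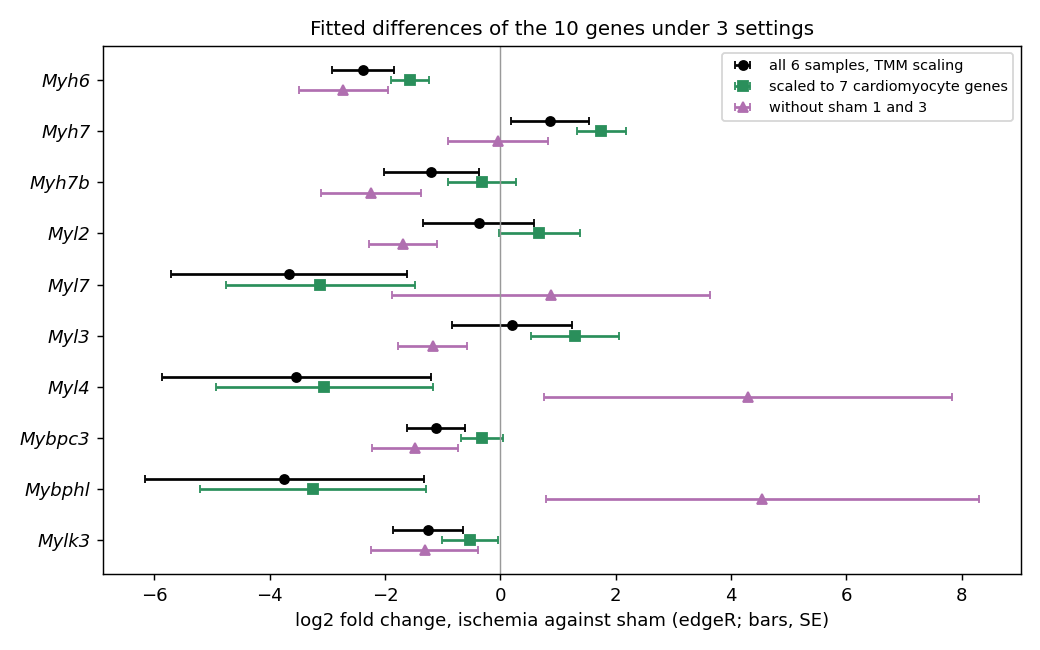
Log2 fold change of the 10 genes, ischemia against sham, from edgeR with bars for the SE, under 3 settings: all 6 samples, scaling to 7 cardiomyocyte genes, and without sham 1 and 3, where sham is 1 library and is assumed to vary like ischemia. Myh6, Myh7b, Mybpc3 and Mylk3 are negative in all 3. Myh7, Myl3, Myl4, Myl7 and Mybphl change sign without sham 1 and 3, and Myl2 changes sign with scaling to cardiomyocyte genes.

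The choice of scale bears on the heavy chains. The 7 cardiomyocyte reference genes were themselves all negative in ischemia (0 of 7 past the edgeR threshold, 2 at an unadjusted p under 0.05 and 2 lower with DESeq2, median log2 fold change -0.59). When libraries were scaled to them, the median of all tested genes shifted to 0.98. Relative to cardiomyocyte transcripts, Myh6 was lower (-1.57, edgeR adjusted p 0.0285) and Myh7 higher (1.75, edgeR adjusted p 0.0357, the lowest of its 17 alternatives, which ranged up to 0.986). On that scale 0.387% of tested genes were called lower and 12.3% higher. Mybpc3 and Mylk3 came to -0.32 and -0.52 there and did not pass.

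The spread within sham set the members apart from each other. The SD of log2 CPM over the 3 sham samples was 4.85 for Myl4, 5.12 for Mybphl and 2.95 for Myl7, above 99.6%, 99.7% and 98.6% of tested genes. The ventricular chains Myl2 and Myl3 followed at 1.90 and 2.11, above 97.2% and 97.6%. Myh6, Mybpc3 and Mylk3 had sham SDs of 0.33, 0.36 and 0.32, close to the median gene at 0.30. In ischemia their SDs were 0.89, 0.97 and 1.32, above 83.0%, 85.9% and 92.8% of tested genes, beside 0.42 for the median gene. Myh6, Mybpc3 and Mylk3 are made in both atrial and ventricular muscle, and their sham values lay within 1.23-fold, 1.30-fold and 1.51-fold of each other. Sham 2 was the highest of the sham samples for Myh6 and Mybpc3, but not for Mylk3. The part of chamber content in these spreads was not tested.

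Genes with the most similar pattern were sought for Myl7, Myl2 and Mylk3, by the root mean square difference of centred log2 CPM over the 6 samples, among 7379 genes with a mean of at least 5 FPKM. For Myl7 they were Rxfp1, the relaxin receptor (0.60), Sbk2, a kinase (0.73), and Sln (0.85). For Myl2 they were Rpl3l, a ribosomal protein of striated muscle (0.19), Fhl2, a LIM protein of the sarcomere (0.21), and Tesc (0.37). For Mylk3 they were Kcng2, a potassium channel subunit (0.11), Prob1 (0.14) and Carns1, the carnosine synthase (0.17). Among the members the same measure was 0.44 between Myl2 and Myl3, 0.60 between Myl2 and Myh7, 0.33 between Mylk3 and Mybpc3, and 1.31 between Myl7 and Myl4.

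Other genes of the myosin system were counted by list. Of 4 other heavy chains, 6 other light chains, 5 light chain kinase and phosphatase genes, 8 myosin-binding and M-line genes and 3 myosin folding genes tested, 0 passed the edgeR threshold in either direction. Of all tested genes 6.71% passed it. At an unadjusted p under 0.05 there were 1, 1, 2, 5 and 2 in these lists, where 32.4% of all tested genes were under that value. DESeq2 called 2 genes higher and 10 lower over them and the regulators together, where it called 27.3% of all tested genes. Their median log2 fold changes were -0.85, -0.12, -0.17, -1.07 and -1.02.

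The genes with the smallest p in those lists were Myh9, a nonmuscle heavy chain (1.09, edgeR adjusted p 0.141), Myl9, the smooth muscle regulatory light chain (-2.49, 0.0545), Mylk, the smooth muscle light chain kinase (-1.81, 0.0781), Mybpc1, slow myosin-binding protein C (-5.77, 0.113), and Hsp90aa1, a chaperone of myosin folding (2.19, 0.0966). Without ischemia 1 the edgeR adjusted p of Myh9, Myl9, Mylk and Hsp90aa1 was 0.0189, 0.0215, 0.0357 and 0.0399, in a fit that called 18.7% of tested genes against 6.71% with all samples. Mybpc1 had 362, 23 and 1006 counts in sham and 27, 0 and 0 in ischemia, so its fitted value depends on libraries at 0. It was -11.8 without ischemia 1, -4.48 without sham 3 and -1.63 without sham 1 and 3.

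Myl9 and Mylk were highest in sham 3, as was the summed FPKM of 6 smooth muscle markers, Myl9 among them, at 501, 278 and 1278 in sham and 331, 91.2 and 130 in ischemia. No smooth muscle marker was at 0 in any sample. Of the 6, 1 passed, Smtn (-1.45, edgeR adjusted p 0.0494), where 6.71% of all tested genes did (1.53% as lower). It was under the threshold in 7 of 17 alternatives, with the smallest adjusted p, 0.000459, in DESeq2. At an unadjusted p under 0.05 there were 2 of the 6, where 32.4% of all tested genes were. DESeq2 called 2 lower, where it called 12.5% of all tested genes as lower. The part of smooth muscle RNA in the values of Myl9 and Mylk was not tested.

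Of 11 transcriptional regulators of myosin genes, 1 passed, where 6.71% of all tested genes did (1.53% as lower), and 5 had an unadjusted p under 0.05, where 32.4% of all tested genes did. The median was -0.58. Thrb, a thyroid hormone receptor of the family that controls Myh6 and Myh7, was at 8.49, 4.85 and 6.15 FPKM in sham and 3.04, 1.49 and 2.07 in ischemia. It fell by 1.62 (log2, SE 0.33, edgeR adjusted p 0.0450). The thyroid hormone receptor motif, found in 14.1% of all promoter windows, was not in those of Myh6 and Myh7 and was in that of Myh7b, 247 bases before the start. Thrb was negative in all 16 alternatives, and 4 of them passed, with adjusted p-values from 0.00016 up to 0.394. Without single libraries it was -1.94 to -1.37, with an edgeR adjusted p of 0.0214 without ischemia 1 and 0.0550 without ischemia 2, and the other 4 of these fits called 0 genes in the whole table. With scaling to cardiomyocyte genes it was -0.79 (edgeR adjusted p 0.192).

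The rows that overlap the heavy chain genes were looked at last, and were chosen after their values were seen. The row of the miR-208b precursor, inside Myh7 on its strand (chr15:33639510-33639621 in the table's coordinates), had 64, 53 and 13 counts in sham and 10, 0 and 4 in ischemia. It was lower in each ischemia library, although Myh7 itself had 285913, 794220 and 265275 counts in sham and 1217653, 390973 and 1038432 in ischemia. Per 1000000 Myh7 counts it was 224, 66.7 and 49.0 in sham and 8.21, 0 and 3.85 in ischemia, again without overlap. Its log2 fold change of -3.28 had an edgeR adjusted p of 0.118, and 1 of 16 alternatives passed, DESeq2 with 0.0485, the others up to 0.394.

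AC130940, a row on the opposite strand that overlaps Myh7 (chr15:33632416-33637928), had 76, 64 and 135 counts in sham and 9, 2 and 13 in ischemia. It fell by 3.52 (log2, edgeR adjusted p 0.0494). Without single libraries the value was -4.19 to -3.05, with an edgeR adjusted p of 0.0574 without ischemia 1 and 0.0571 without ischemia 2. Of 16 alternatives 5 passed, and adjusted p-values ran from 0.000304 with DESeq2 to 0.394. Over Myh6, the opposite-strand row AC115371 had 35, 17 and 34 counts in sham and 7, 2 and 1 in ischemia, too low for the filter. Per 1000000 Myh6 counts it was 17.6, 7.25 and 19.9 in sham and 10.6, 10.1 and 2.64 in ischemia, and the groups overlapped. The miR-499 precursor row in Myh7b was at 0 in all 6 libraries, so up to 3 counts per library, 0.0377 to 0.0438 CPM, are allowed by counting error. The kit kept strand, but whether counting used it is not given in the sources used here, so reads of a gene and of an overlapping row cannot be told apart.

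**Figure D5:**
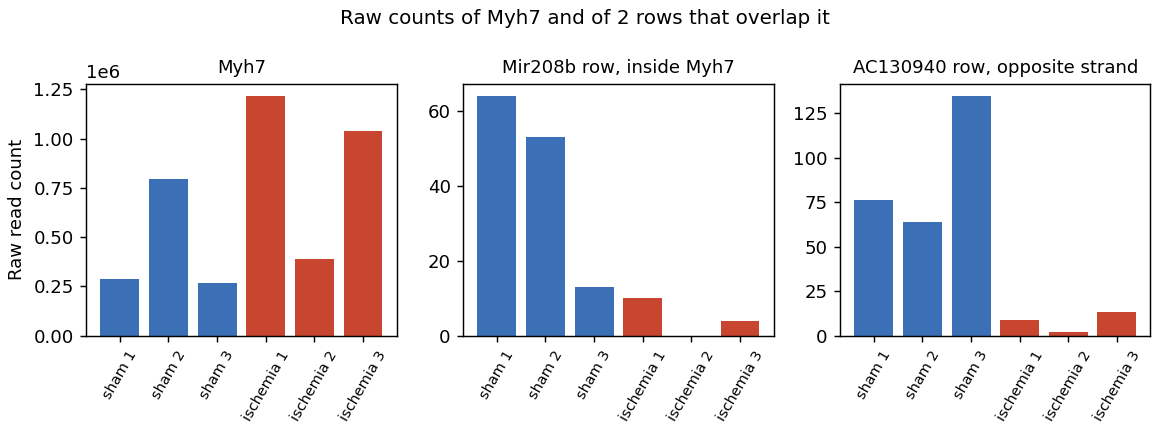
Raw read counts, on linear axes that start at 0, of Myh7, of the miR-208b precursor row inside it and of AC130940 on the opposite strand, in sham (blue) and ischemia (red). Myh7 is highest in ischemia 1, with 1217653 counts, and both overlapping rows are lower in the 3 ischemia libraries than in the 3 sham libraries.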

How the data were processed

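RNA sequencing covered myocardium of 3 sham and 3 ischemia samples. The authors deposited 1 table with raw read counts per gene, not normalized, and FPKM values that they had scaled by gene length and library size, with zeros written as 0.0001. Per the labels, reads came from a stranded total RNA kit, and STAR and HTSeq were named in the submitters' processing notes without versions. The genome build is not given in the sources used here. Counts and FPKM kept a constant ratio (within 1%) in 99.92% of 11233 genes with at least 100 counts in each sample. Without a stated counting rule, values of near-identical or overlapping genes are uncertain.

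Genes with a mean of at least 0.5 FPKM (13964) were tested for ischemia against sham with the quasi-likelihood test of edgeR on counts, with TMM scaling, no covariate, two-sided p-values and Benjamini-Hochberg adjustment over all tested genes, at a threshold of 0.05. SEs were derived from the F statistic. Single values were compared by two-sided exact permutation tests. Chain shares were computed from FPKM. Log2 CPM (counts per library size) used a prior count of 1. The named genes were the members, in each list the genes past the threshold or else the gene with the smallest p, and the 3 nearest patterns of Myl7, Myl2 and Mylk3. Single genes named from the marker lists and the rows overlapping heavy chains were chosen after their values were seen. The members and lists were chosen with earlier results of these data known. Alternatives were DESeq2, median-ratio, total-count and cardiomyocyte reference scaling, 2 other filters, limma on log2(FPKM + 0.1) and log2(FPKM + 1), the replicate number as a block, an atrial covariate, raw count shares and each sample left out. Removal of sham 1 and 3 was added after seeing the data. The edgeR step was tested on simulated data. Ttn, Myh1, Myh2, Myh13 and Myl6b were not analysed here. Computations ran in DESeq2 1.42.0, limma 3.58.1 and edgeR 4.0.16 under R 4.3.3, and in SciPy 1.17.1 and matplotlib 3.10.9 under Python 3.11.15. Intervals and floors cover counting error only.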

Additional observations from a re-analysis of the deposited data

How the results depend on the processing

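Each member had at least 43 counts in every library, and precision is limited by the 3 libraries a group. The direction of Myh6, Myh7b, Mybpc3 and Mylk3 was negative under all 17 alternatives. Causes of the changes below were not tested.

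Over all genes, 723 were higher and 214 lower (77.2% higher). DESeq2 gave 2071 and 1742 (54.3% higher), and cardiomyocyte reference scaling 1719 and 54 (97.0% higher). Total-count scaling left 83 lower genes and no filter 93. With a mean of at least 5 FPKM, over fewer tested genes, 725 were higher and 291 lower. Limma gave 850 higher and 262 lower with a pseudocount of 0.1, and 657 and 209 with a pseudocount of 1. With the replicate block, the atrial covariate, or without sham 1 and 3, edgeR called 0 in either direction, with 3349, 1946 and 1707 genes at an unadjusted p under 0.05. With single libraries left out, 0 to 1490 were higher and 0 to 1115 lower. Among the members 1 was lower (Myh6) with DESeq2, total-count scaling, reference scaling, a mean of at least 5 FPKM and both limma fits, 1 was higher (Myh7) with reference scaling, and 0 to 2 were lower with single libraries left out (2, Myh6 and Myl7, without ischemia 1, where 7.98% of tested genes were called lower). In the lists of other myosin genes and regulators, 1 was lower (Thrb, a regulator) and 0 higher. DESeq2 gave 10 lower and 2 higher, reference scaling 0 and 3, limma with a pseudocount of 0.1 gave 2 lower, and 0 were lower with total-count scaling, no filter, limma with a pseudocount of 1, the replicate block, the atrial covariate and without sham 1 and 3. Single libraries left out gave 0 to 4 lower and 0 to 2 higher.

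The log2 fold change of Myl2 reversed to 0.68 with reference scaling, 0.48 with both limma fits, 0.66 with the replicate block and 1.60 without sham 2, within a range of -0.84 to 1.60 with single libraries left out. Myl3 reversed to -0.17 with the atrial covariate, -0.29 without sham 1 and -0.27 without sham 3, within a range of -0.29 to 2.46. Myl4 and Mybphl reversed to 2.20 and 2.15 with the atrial covariate, and Myl7 came to -0.44 with it. Without sham 1 and 3, Myh7 came to -0.037, Myl3 to -1.17, Myl4 to 4.30, Myl7 to 0.88 and Mybphl to 4.55. The differences in chain share were then 42.9 points for Myh7, 9.12 for Myl7 and 5.03 for Myl4. With single libraries left out they ran from 48.7 to 55.3, from -79.8 to -34.4 and from -81.7 to -37.9. DESeq2 gave no adjusted p for Myl2 and Myl3.

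Deviations from the group mean correlated at -0.0530, -0.0832 and -0.192 between samples with the same replicate number. Between samples with different numbers the correlations were -0.0462 to 0.189. With 3 samples a group, these values cannot decide whether the numbers mark pairs. With the replicate block Myh6 was at -2.50 with an edgeR adjusted p of 0.152, and no member passed.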
